A study of Mus musculus with 6 samples.

Results

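The *LncRNA-HIT* ChIRP-seq peaks on mouse chromosome 11 were taken as every row of the limb peak list placed on that chromosome, which gave 208 of the 2880 limb peaks. Among the autosomes, chromosome 11 held the most limb peaks for its length, and it was chosen by that measured count, so the count is given here as a description without a test. The glial list held 158 of its 2919 peaks on the same chromosome. In ChIRP, biotin-tagged DNA oligonucleotides complementary to an RNA are used to precipitate the chromatin associated with it. Limb chromatin came from the distal part of pooled limb buds of Swiss Webster embryos at E 11.0, and control chromatin from murine glial cells, a line in which the RNA is not expressed. The sample labels give E 11.0 and embryonic brain for the glial samples, whereas the protocol text gives E15.5. Each chromatin was hybridized with an odd pool of 13 probes and an even pool of 12 probes and was sequenced beside an input, which makes 6 libraries in 2 tissues. The authors merged odd and even tracks before peaks were called, so there is 1 list per tissue and no replicate, and the spread between samples cannot be measured. Each peak has a MACS score, and scores were divided by 10 to give −log10(p). Read numbers are not known for any peak, and each interval below covers counting error only.

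*LncRNA-HIT*, a long noncoding RNA that the probe names call Hotchon, is transcribed within the HoxA cluster on another chromosome, so every site on chromosome 11 lies in *trans*. Mouse chromosomes are acrocentric, with the centromere at the end where numbering starts, and the satellite sequence there is written as unknown bases in the assembly. Chromosome 11 is among the chromosomes richest in GC and in genes, and it carries the HoxB cluster, the cartilage regulator *Sox9*, the type I collagen gene *Col1a1* and the BMP antagonist *Nog*.

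The sequences at which a limb peak carried an unbroken run of a probe are shown first, since such runs are where a probe could pair with the DNA itself. Capitals mark the bases identical between probe and peak, and positions are those of mm9. All sequences read 5′ to 3′ on the strand that matches the probe. The peak given as upstream of *Odz2* lay 709 kb from that gene.
Probe 7: CAAGGTCAAGGTttaaggcc
Intron of *Odz2*, chr11:36236388-36236441, plus strand: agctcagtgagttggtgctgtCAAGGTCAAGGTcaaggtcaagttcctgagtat
Downstream of *Spred2*, chr11:19928102-19928155, plus strand: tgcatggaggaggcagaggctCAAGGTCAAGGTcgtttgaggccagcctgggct
Probe 1: catttgCCACAGGGAGTCTg
Intron of *Slit3*, chr11:35269334-35269388, minus strand: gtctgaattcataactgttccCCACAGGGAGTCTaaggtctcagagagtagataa
Probe 13: cCAAGTCTAGAAATCggctt
Upstream of *Odz2*, chr11:37758409-37758464, minus strand: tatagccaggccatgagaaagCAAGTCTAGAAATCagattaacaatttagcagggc
Probe 12: aTCTTCACTCGTCAGCaatt
Intron of *Hormad2*, chr11:4323671-4323713, minus strand: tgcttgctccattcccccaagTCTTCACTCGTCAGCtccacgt
Probe 7 starts with 2 copies of CAAGGT. The peak in the intron of *Odz2* carries 4 consecutive copies of the same 6-base unit, written from another base as GTCAAG, over 24 bases. The run of 15 bases in *Hormad2* occurs at 2 sites in the assembled chromosomes, and the run of 12 bases shared by the *Odz2* and *Spred2* peaks occurs at 1223.

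The other sequences shown are the middle 300 bases of the strongest peak of the chromosome and of the 2 strongest peaks away from *Sfi1*, and the bases of a peak in *Drg1* that the limb and glial lists share. Here capitals mark bases that belong to a 24-base word with further copies in the genome.
Intron of *Sfi1*, chr11:3082188-3082487, plus strand: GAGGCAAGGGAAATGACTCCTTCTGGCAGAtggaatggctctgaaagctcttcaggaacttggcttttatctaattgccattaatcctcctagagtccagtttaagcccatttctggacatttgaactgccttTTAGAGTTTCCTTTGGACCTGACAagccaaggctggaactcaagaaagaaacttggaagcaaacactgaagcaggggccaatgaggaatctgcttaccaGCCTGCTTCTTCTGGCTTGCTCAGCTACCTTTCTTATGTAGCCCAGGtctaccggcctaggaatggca
Intron of *Ube2o*, chr11:116425638-116425937, plus strand: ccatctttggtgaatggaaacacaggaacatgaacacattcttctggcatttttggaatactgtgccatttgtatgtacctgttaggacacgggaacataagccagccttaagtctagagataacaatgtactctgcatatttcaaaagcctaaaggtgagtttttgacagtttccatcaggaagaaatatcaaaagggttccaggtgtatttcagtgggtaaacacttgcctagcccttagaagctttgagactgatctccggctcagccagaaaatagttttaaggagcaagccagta
Intron of *Ccdc69*, chr11:54875750-54876049, plus strand: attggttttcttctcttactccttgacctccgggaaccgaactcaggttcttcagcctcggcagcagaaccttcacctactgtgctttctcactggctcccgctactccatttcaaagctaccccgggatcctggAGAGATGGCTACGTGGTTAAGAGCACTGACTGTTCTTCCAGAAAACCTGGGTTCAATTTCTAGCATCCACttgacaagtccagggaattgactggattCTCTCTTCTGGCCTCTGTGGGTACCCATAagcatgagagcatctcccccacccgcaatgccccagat
Intron of *Drg1*, bases shared with a glial peak, chr11:3095424-3095603, plus strand: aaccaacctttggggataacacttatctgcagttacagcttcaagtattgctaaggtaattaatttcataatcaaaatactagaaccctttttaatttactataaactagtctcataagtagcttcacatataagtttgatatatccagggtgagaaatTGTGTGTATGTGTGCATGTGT
In the middle of the *Sfi1* peak, 101 of 300 bases lay in repeated words, none of which occurred more than 21 times. None of the bases shown from *Ube2o* lay in a repeated word. The *Ccdc69* peak had 99 such bases, with words of up to 1602 copies, and the *Drg1* stretch had 21 of 180 in a tract rich in TG at its end.

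Chromosome 11 held 1.75 limb peaks per Mb of known sequence (95% Poisson interval 1.52 to 2.01), and all other chromosomes together held 1.09. The lowest and highest values among the other autosomes were 0.877 and 1.42 per Mb, on chromosomes 19 and 9. Chromosome Y, with 21 peaks on 2.70 Mb of known sequence, was the 1 chromosome with a higher value, 7.77 per Mb. The glial list held 1.33 peaks per Mb of chromosome 11 (1.13 to 1.56) and 1.13 elsewhere, and chromosome 11 ranked 7 of 21 by glial density. At the density of the other chromosomes, 129.9 limb peaks would lie on chromosome 11, so the list held 78.1 more. The other chromosomes include chromosome X, with 0.376 limb peaks per Mb, and the other autosomes alone held 1.14 per Mb. Chromosome 11 had the highest GC content of all chromosomes, 43.8% against 41.7% for the others together, and 13.9 protein-coding genes per Mb against 8.49, a value exceeded on chromosome 7 (14.6).

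**Figure D1:**
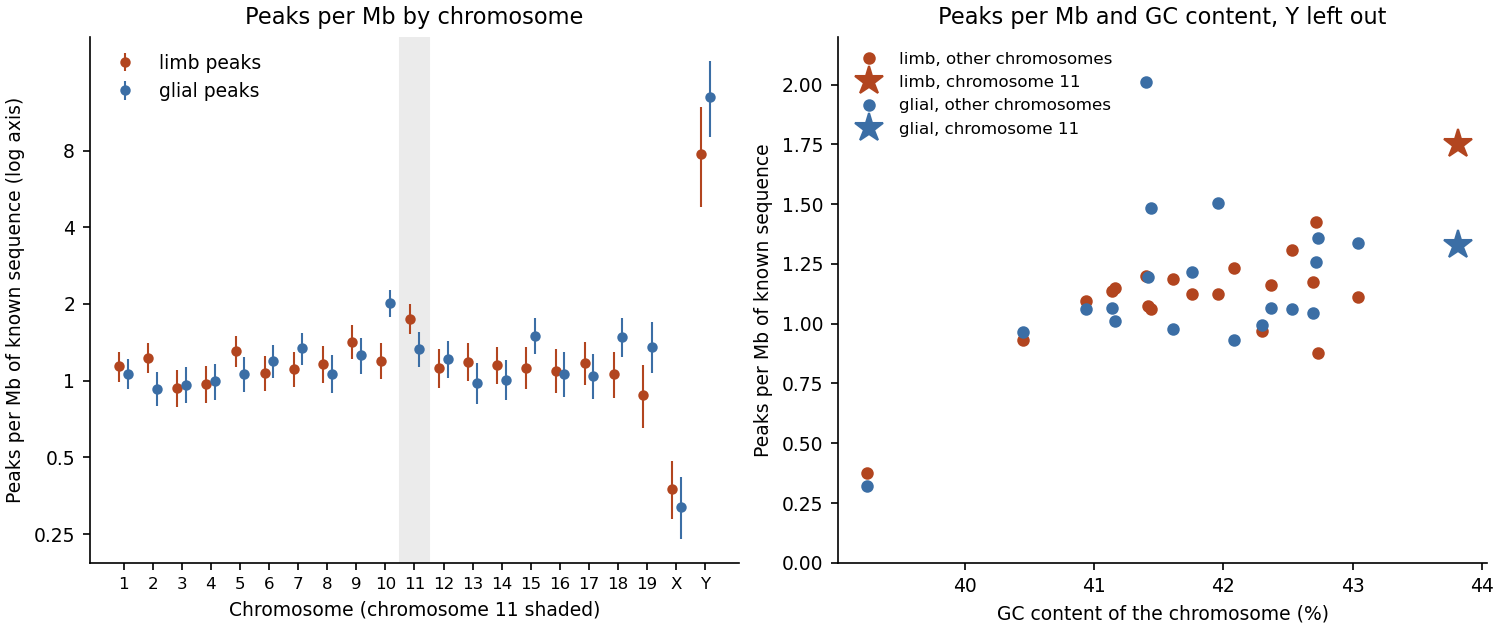
Peaks per Mb of known sequence for each chromosome in the limb and glial lists, with 95% Poisson intervals on a log axis (left), and the same values against the GC content of the chromosome without chromosome Y (right). Chromosome 11 stands at 1.75 limb peaks per Mb and at the right end of the GC axis, and its glial value of 1.33 lies among those of the other chromosomes.

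The largest single part of the excess lay at the centromere end, over *Sfi1* and *Drg1*. *Sfi1* encodes a centrin-binding protein of the centrosome and *Drg1* a GTP-binding protein. The limb list placed 30 of its 208 peaks (14.4%) between 3032871 and 3097977, a span of 65.1 kb close to the first assembled base of the chromosome. Of these, 23 lay over *Sfi1* alone, 3 over *Drg1* alone and 4 over both genes, and 11 touched an exon of the gene they were assigned to. No other limb peak lay within 1 Mb beyond the stretch.

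The limb peaks of the stretch had a median −log10(p) of 51.1, from 6.22 for a peak at the overlap of *Sfi1* and *Drg1* to 252 in an intron of *Sfi1*. Next to the strongest, 2 more *Sfi1* peaks stood at 220 and 123, and these 3 were also the widest, at 2631, 3079 and 2628 bp against a median of 468 bp in the stretch. The strongest *Drg1* peak had 75.9. The 178 limb peaks elsewhere on the chromosome had a median of 36.8 and a maximum of 146.

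The glial list also held 30 peaks in this stretch, which was 19% of its peaks on the chromosome. Their median −log10(p) was 51.4, and the highest, 317 at 3077953 to 3080003 in *Sfi1*, was the highest of the whole glial list. Of the 30 limb peaks, 18 shared 1 bp or more with a glial peak. The strongest limb peak, from 3081023 to 3083653, overlapped none, whereas the next, from 3084171 to 3087249, did. Glial peaks covered 42.8% of the 67.0 kb that both lists span, and 40.6% of the bases of limb peaks lay within glial peaks. The places of the peaks within the stretch therefore differed between the lists, although the stretch itself was the same.

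**Figure D2:**
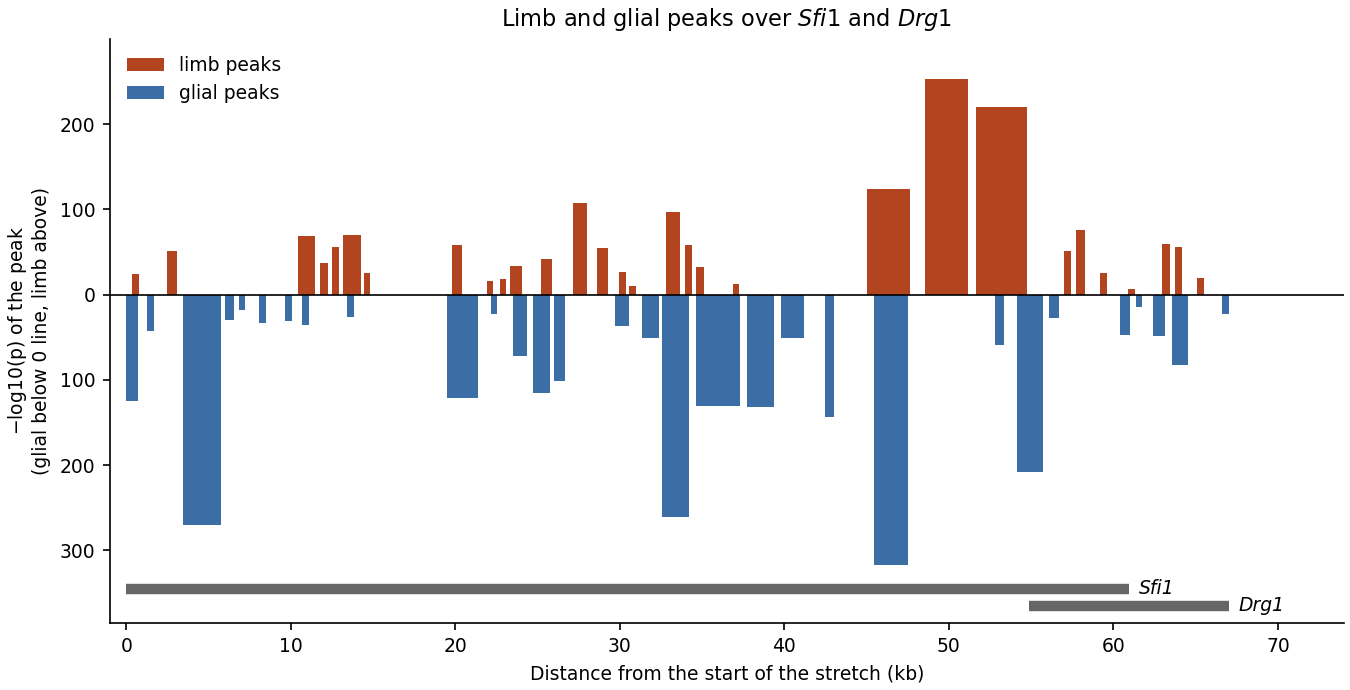
−log10(p) of each limb peak (above the line) and glial peak (below the line) over the stretch that holds *Sfi1* and *Drg1*, against the distance from its start in kb. Bar widths are peak widths and grey bars are the gene bodies within the stretch. Each list has 30 peaks there, with maxima of 252 (limb) and 317 (glial).

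The median limb peak of the stretch had 5.97% of its 24-base words repeated elsewhere in the genome, and the median glial peak there 14.6%. For limb peaks of chromosome 11 outside the stretch the median was 0.252%, and 78.1% of them had fewer than 10% of their words repeated. In the stretch that held for 9 of the 30 glial peaks (30%) and for 17 of the 30 limb peaks (56.7%). Of the 22295 distinct words in the limb peaks of the stretch, 10.7% were repeated, and 99.4% of the repeated words also occurred on another chromosome. Among the 1135 words with 2 to 10 copies, 420 occurred on chromosome 5, the most of any other chromosome. Whether additional copies of this stretch exist in the unassembled sequence was not tested.

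Without the stretch, chromosome 11 held 178 limb peaks, 1.5 per Mb (95% Poisson interval 1.29 to 1.74), which is 48.1 more than at the density of the other chromosomes. This limb density was 1.37 times that of all other chromosomes and 1.32 times that of the other autosomes. The glial list without the stretch held 128 peaks, 1.08 per Mb (0.899 to 1.28), a difference of -6.23 from the number at the density of the other chromosomes. The 30 peaks over *Sfi1* and *Drg1* thus made up a part of the limb excess and all of the glial one.

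Along the rest of the chromosome the limb peaks were spread widely. Of the 119 windows of 1 Mb, 35 held no limb peak outside the stretch, 63 held 1 or 2, 21 held 3 or more, and the most was 6. From 5 to 47 Mb, where GC content was 41.0% and there were 5.08 protein-coding genes per Mb, the list held 48 peaks, 1.14 per Mb. Over the next 57.9 Mb, with 45.0% GC and 19.2 genes per Mb, it held 106 peaks, 1.83 per Mb. Over the last 16.8 Mb, where GC content was highest at 46.7% and genes numbered 16.6 per Mb, it held 22 peaks, 1.31 per Mb. The highest limb density outside the stretch thus lay in the middle of the chromosome and not at the end richest in GC. Glial peaks followed the same order, with 0.787, 1.36 and 0.831 per Mb. The limits of these sections were set after the counts were seen.

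**Figure D3:**
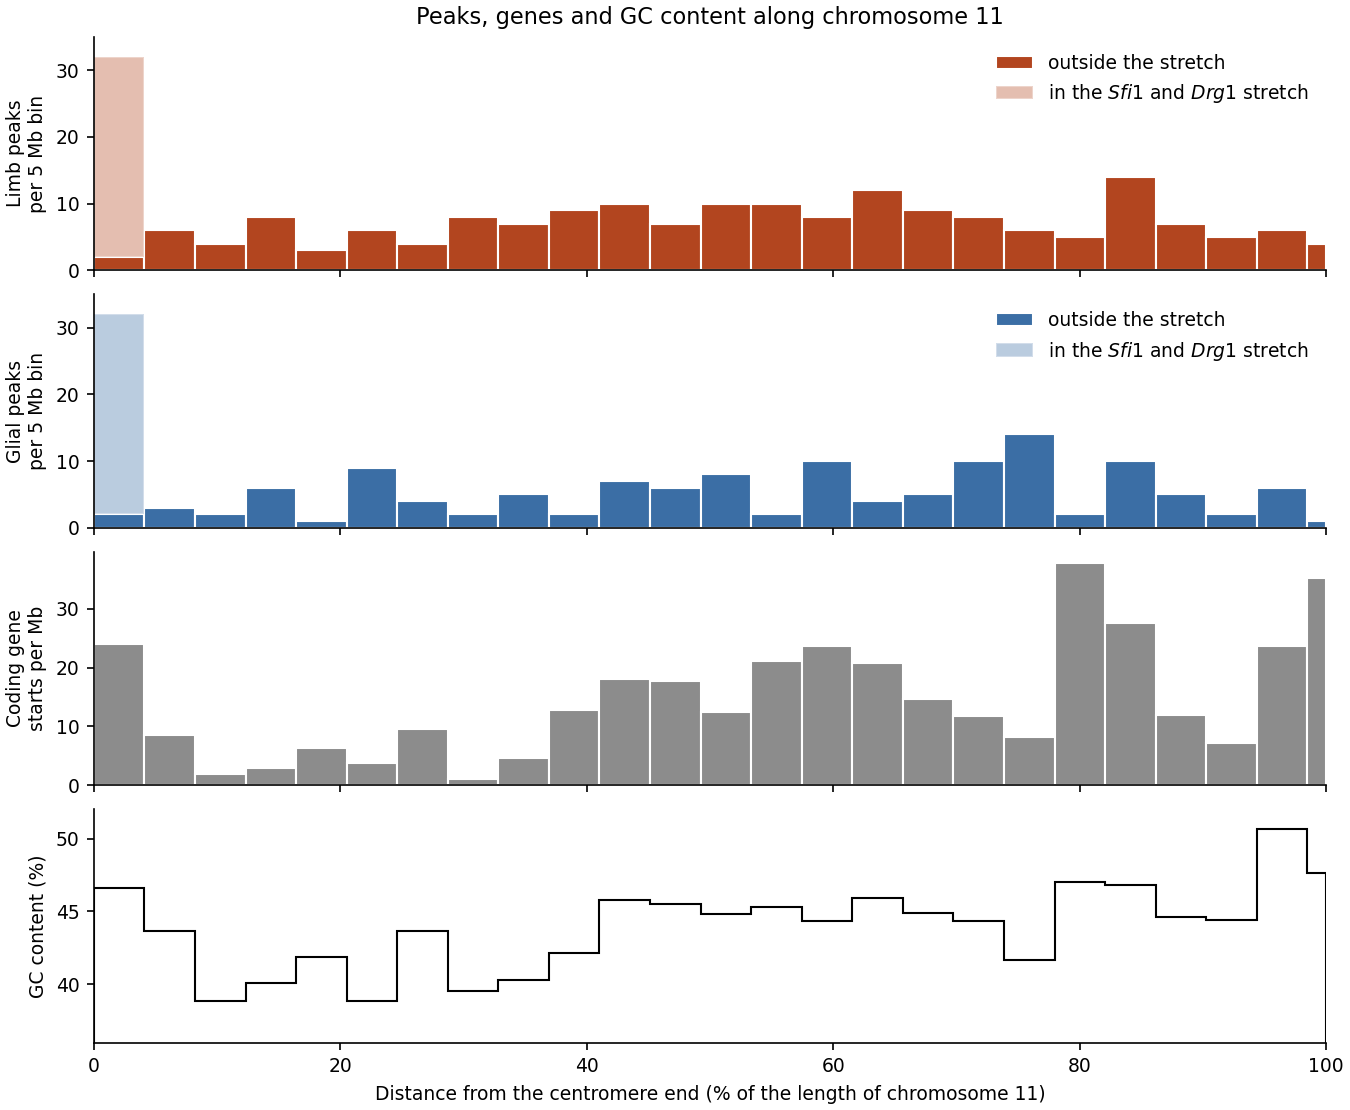
Limb peaks, glial peaks, protein-coding gene starts per Mb and GC content in bins of 5 Mb along chromosome 11, from the centromere end (left), as percent of its length. The first bin has 2 Mb of known sequence and holds 32 peaks in each list, 30 of them in the stretch over *Sfi1* and *Drg1* (pale bars), and the last bin is shorter. Elsewhere limb bins run from 3 to 14 peaks.

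The limb windows with 5 or 6 peaks outside the stretch numbered 6. They lay at *Fstl4* and *9530068E07Rik* (52 to 53 Mb), downstream of *Map2k4* (65 to 66 Mb), at *Rab34*, *Supt6h*, *Nlk* and *Ksr1* (78 to 79 Mb), at *Accn1* and *Ccl12* (81 to 82 Mb), at *Krt9* and *Ttc25* (100 to 101 Mb) and at *Ezh1*, *Aoc3*, *Rundc1*, *Rnd2* and *Etv4* (101 to 102 Mb). Their GC content ran from 42.3% to 48.3% and their coding gene starts from 4 to 40. The glial list held between 0 and 4 peaks in each of them.

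In the 40 windows of 1 Mb with the highest GC content on the chromosome (45.7% or more), there were 95 limb peaks, 45.7% of them (95% Wilson interval 39.0% to 52.5%), on 33.6% of the known sequence. This rested on the stretch, since without it 65 of 178 peaks (36.5%, 29.8% to 43.8%) lay there. The glial share without the stretch was 32.0%. In the 42 windows with the most coding gene starts, 17 or more, there were 91 limb peaks (43.8%, 37.2% to 50.5%) on 35.2% of the sequence, and 61 of 178 (34.3%, 27.7% to 41.5%) without the stretch. Outside *Sfi1* and *Drg1*, neither the GC-rich nor the gene-dense windows of chromosome 11 therefore held a share of limb peaks above their share of sequence by more than counting error.

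The windows of chromosome 11 were also set beside windows of like GC content on the other chromosomes, in 5 classes of about equal size over the genome. Chromosome X was counted among the other chromosomes here. Of the windows of chromosome 11, 41.2% fell in the class richest in GC, against 19% of the windows of the other chromosomes. On the other chromosomes, limb density rose over the classes from 0.703 to 0.911, 1.00, 1.27 and 1.63 per Mb. On chromosome 11 outside the stretch it was 0.455, 1.41, 1.77, 1.56 and 1.65 per Mb. The value of the richest class rests on 81 peaks and that of the middle class on 23. Since the chromosome was selected on its limb count, these densities are a description and were not tested against the other chromosomes.

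Had each window held limb peaks at the density of its GC class elsewhere, 152.7 would lie outside the stretch, and 178 were found. With classes by coding gene starts the number was 136.1. For glial peaks the corresponding numbers were 142.2 and 136.0, and 128 were found. The limb count thus stood 25.3 above the number given by the GC classes and 41.9 above that given by the gene classes, as a description of the count on which the chromosome was selected. What sets the relation between GC content and limb peaks was not tested.

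**Figure D4:**
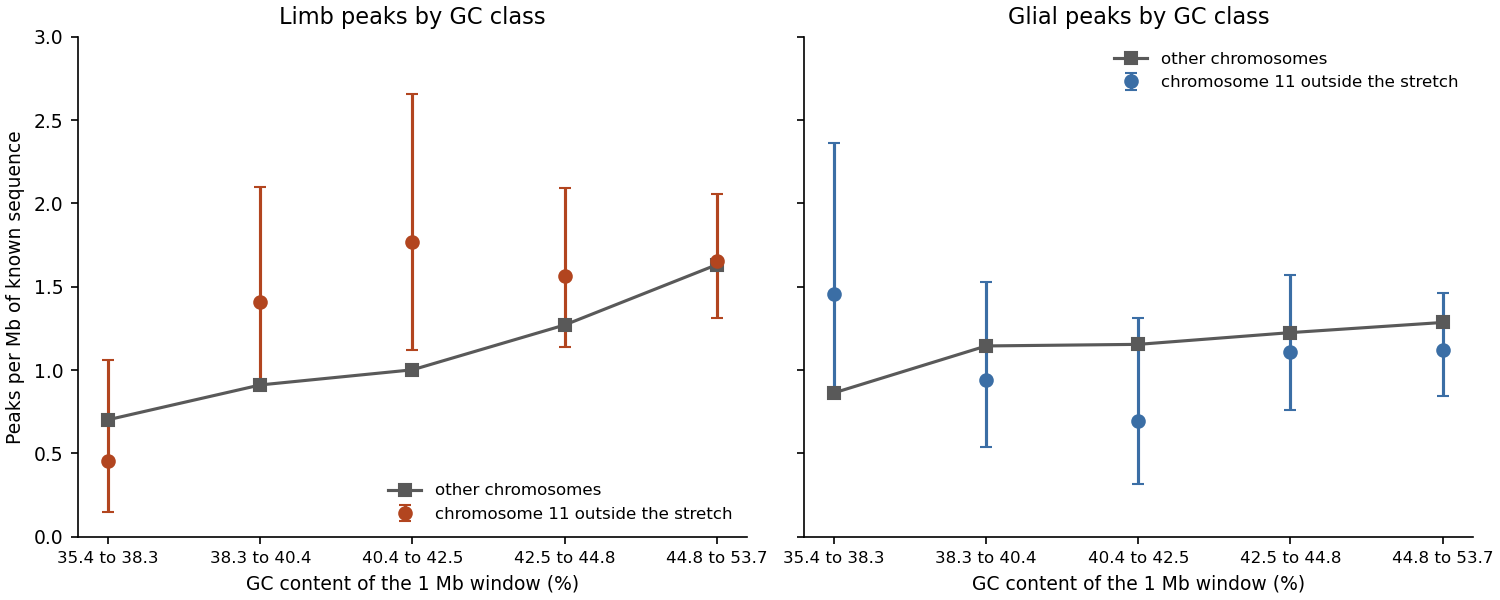
Limb (left) and glial (right) peaks per Mb of known sequence in 5 classes of 1 Mb windows by GC content, for chromosome 11 outside the stretch over *Sfi1* and *Drg1* (circles with 95% Poisson intervals) and for all other chromosomes (squares). The limb values of the other chromosomes rise from 0.703 to 1.63, where chromosome 11 has 1.65 in the richest class, and chromosome 11 lies furthest above them in the middle class, at 1.77 against 1.00.

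Of the 208 limb peaks, 120 (57.7%, 95% Wilson interval 50.9% to 64.2%) lay in the body of a protein-coding gene, against 45.8% of all limb peaks. Without the stretch the share was 50.6% (43.3% to 57.8%), and gene bodies make up 47.3% of the known sequence of chromosome 11 and 38.8% of that of all chromosomes. Exons were touched by 31 peaks (14.9%, against 9.72% of all limb peaks), 11 of them in the stretch. A further 50 peaks lay upstream and 38 downstream of the nearest gene. A coding gene lay within 25 kb of 155 peaks (74.5%, against 62.3% of all limb peaks), and of 125 of the 178 outside the stretch (70.2%, 63.1% to 76.5%), where 68.1% of the sequence lies so near to a gene. A coding gene start lay within 5 kb of 24 peaks (11.5%, against 8.99%). Outside the stretch the limb peaks were therefore near genes about as often as the sequence of chromosome 11 is. The glial peaks outside the stretch lay in gene bodies in 37.5% (29.6% to 46.1%) and within 25 kb in 60.2% (51.5% to 68.2%), and over the whole glial list these shares were 42.6% and 59.3%.

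At the study threshold, a p-value of 5.9e-57 or smaller, there were 56 of the 208 limb peaks (26.9%), and the share over the whole limb list was 26.9% too. Chromosome 11 therefore had more limb peaks per Mb, and these were no more often strong.

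The 20 strongest limb peaks had a −log10(p) of 78.7 or more. In the stretch lay 5 of them, all in *Sfi1*, and 10 of the other 15 lay in the body of another coding gene. Glial peaks overlapped 3 of the 20, all in *Sfi1*.

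Outside the stretch, the strongest peak lay at chr11:116424947-116426628 in an intron of *Ube2o*, which encodes an E2 ubiquitin-conjugating enzyme, with a −log10(p) of 146 and a width of 1682 bp. It was followed by a peak of 134 in an intron of *Ccdc69*. The next, of 111, lay 111 kb downstream of *Map2k4*, which encodes a kinase that activates JNK, with a second peak of 86.1 beside it. None of these 4 overlapped a glial peak.

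Among genes of signalling and transcription, the peak in *Nlk*, the Nemo-like kinase, had a −log10(p) of 88.2, although 47.8% of its 24-base words were repeated in the genome. The peak in *Supt6h*, a transcription elongation factor, had 88.9, and the peak 3.79 kb downstream of *Spred2*, an inhibitor of Ras and ERK signalling, had 83.0. The *Slit3* gene, which encodes a secreted ligand of Robo receptors, had 80.8 in an intron. The neuromedin U receptor gene *Nmur2* had 79.1 at a distance of 111 kb upstream of it. These 5 peaks stood between the 11th and 19th place on the chromosome.

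Among other genes at the 20 strongest peaks, *Acaca*, which encodes an acetyl-CoA carboxylase of fatty acid synthesis, had an intronic peak of 89.2 in −log10(p). An exon of *Ace*, the angiotensin-converting enzyme gene, had 86.2 with 58.9% GC. The neurofilament gene *Nefh* had 84.9 upstream. The teneurin gene *Odz2* had 89.8 in an intron, and *Rundc1* and *2310067B10Rik* had 83.2 and 78.7. Of the genes named among the 20 strongest outside the stretch, *Ube2o* and *Acaca* also held a glial peak in their body, but not at the same site.

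Limb peaks joined by gaps of at most 25 kb formed 19 groups of 2 or more, with 75 peaks, and 133 stood alone. The stretch was the largest group, with 30 peaks, and 45 of the 178 limb peaks outside it were in groups. With each group counted once, the 208 limb peaks of chromosome 11 gave 152 groups and single peaks. The 2880 peaks of the whole limb list gave 2487. The share of peaks in groups was not calculated for the other chromosomes. Apart from the stretch, 8 groups had 3 or 4 peaks. In *Slit3* the 3 peaks, all in introns, had a −log10(p) of 58.4, 80.8 and 68.2 over 10.6 kb. None of their 24-base words was repeated, and the nearest glial peak to the gene was 1076 kb away. In *Rabep1*, which encodes the endosomal protein rabaptin, 4 peaks over 5.18 kb had 17.5, 21.1, 9.28 and 77.3. The 3 *Fstl4* peaks had 16.4, 57.7 and 9.26 over 2.56 kb. *Rabep1* and *Fstl4* thus carried strong and weak peaks side by side, whereas all 3 *Slit3* peaks passed the study threshold described above.

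The *Odz2* gene, 1229 kb long, held a group of 3 intronic peaks over 6.38 kb, for which −log10(p) was 15.54, 17.6 and 43.8, at a distance from its strongest peak. In *Ube2o* the peak of 146 was flanked by 25.3 and 11.1. Downstream of *Map2k4* the group had 8.78, 111 and 86.1. The chemokine gene *Ccl12* had 30.1 and 72.3 upstream and 54.7 downstream, and the keratin gene *Krt9* had 63.2 and 23.2 downstream and 55.7 upstream. In the groups of *Map2k4*, *Ccl12* and *Krt9* no peak lay within the gene itself.

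Of the 1653 protein-coding genes on chromosome 11, 73 held a limb peak in their body, 15 held 2 or more, and 8 held 3 or more: *Sfi1* with 27, *Drg1* with 7, *Odz2* and *Rabep1* with 4 each, and *Fstl4*, *Msi2*, *Slit3* and *Ube2o* with 3 each. Genes with a limb peak inside were long, with a median of 74.8 kb against 12.2 kb for the rest. For genes with a glial peak inside the median was 57.4 kb. Among the 119 genes over 100 kb, 31 held a limb peak and 13 a glial one. A longer gene holds more sequence, and these values were not adjusted for gene length. A glial peak lay in 40 genes, and 7 genes held both, namely *Sfi1*, *Drg1*, *Ube2o*, *Acaca*, *Bcas3*, *Ccdc46* and *Ebf1*. A limb peak within 25 kb was found for 168 genes (10.2%), against 9.94% of the coding genes of all chromosomes. For glial peaks these shares were 6.96% and 8.7%.

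A list of 61 genes of limb, cartilage and signalling biology on chromosome 11 was also examined, whether or not a peak was near. A limb peak lay within 25 kb of 7 of them (11.5%) and a glial peak within 25 kb of 8 (13.1%), against 10.2% and 6.96% of all coding genes of the chromosome. The limb peaks lay in the body of 4. The Wnt pathway inhibitor gene *Axin2* had a peak of 49.3 in an intron, the Ras regulator *Nf1* 39.6 over an exon, the growth factor receptor gene *Egfr* 37.8 in an intron, and the Polycomb methyltransferase gene *Ezh1* 25.1 in an intron. For *Fzd2*, a Wnt receptor gene, *Brca1*, a DNA repair gene, and *Nog*, limb peaks lay at 13.4, 15.4 and 19.5 kb, with a −log10(p) of 40.9, 22.5 and 20.1. All 7 were below the study threshold and none of their peaks overlapped a glial peak.

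The other genes of the list had no limb peak within 25 kb. The nearest limb peak to *Tbx4*, a hindlimb transcription factor gene, lay 34.0 kb away, whereas a glial peak lay 2.23 kb from it. Among other transcription factor genes of the list, the nearest limb peak lay at 104 kb for *Dlx4*, 108 kb for *Tbx2*, 125 kb for *Dlx3*, 258 kb for *Meis1*, 413 kb for *Sox9* and 438 kb for *Hand1*. For *Col1a1* it lay at 298 kb. All 10 genes of the HoxB cluster lay between 212 kb and 384 kb from the nearest limb peak, which lay in *Igf2bp1*, an RNA-binding protein gene, and had 75.5 in −log10(p). The median distance was 289 kb over the list and 231 kb over all coding genes of the chromosome. The 8 genes with a glial peak within 25 kb were *Stat3*, *Stat5a*, *Stat5b*, *Tbx4*, *Sparc*, *Meis1*, *Cbx2* and *Cbx8*. Over all 1653 coding genes of the chromosome, 23 had both a limb and a glial peak within 25 kb.

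Outside the stretch, 2 of the 178 limb peaks overlapped a glial peak, a share of 1.12% (95% Wilson interval 0.309% to 4.0%). With the stretch, 20 of 208 did (9.62%), against 3.85% of all limb peaks, and of the glial peaks of the chromosome 11.4% overlapped a limb peak, against 3.56% of all glial peaks. The first shared site outside the stretch, 114 kb downstream of *Map2k4*, had a −log10(p) of 8.78 in the limb list and 11.7 in the glial list. The second, 34.3 kb upstream of *Ptchd3*, had 36.6 and 10.8. All 8 shared limb peaks at the study threshold lay in *Sfi1* or *Drg1*.

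The bases of the limb peaks had a median GC content of 45.4% (95% interval 44.2% to 46.3%), with and without the stretch. It was 43.9% for limb peaks of the other chromosomes and 43.2% (41.8% to 44.6%) for glial peaks of chromosome 11 outside the stretch, where the limb interval was 44.1% to 46.5%. When chromosome 11 was cut into 291033 tiles of 408 bp, the median width of its limb peaks, the median tile had 43.6%. Single peaks ran from 31.1% GC in an intron of *Odz2* to 74.4% at *D930048N14Rik*. The median limb peak was thus richer in GC than the median tile by more than counting error, whereas the limb and glial intervals overlapped.

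A run of 12 or more bases identical to a probe was found in 13 of the 208 limb peaks (6.25%, 95% Wilson interval 3.69% to 10.4%), against 8.06% of all limb peaks and 1.25% of the tiles. In the glial list it was found in 1.90% of the peaks of chromosome 11 and 2.81% of all. None of the 13 lay in the stretch, where no peak had a run longer than 11 bases, and none overlapped a glial peak. A run of an odd probe was found in 11 (5.29%, against 5.17% of all limb peaks). A run of an even probe was found in 3 (1.44%, 0.492% to 4.15%, against 3.23% of all limb peaks), and 1 peak held both. Peaks were called on a merge that keeps whichever track, odd or even, is lower at each base. Taking the longest run of each peak, probe 9 gave 3, and probes 1, 7, 12 and 21 gave 2 each. The 3 of probe 9 lay 58.1 kb upstream of *Vstm2a*, 304 kb upstream of *Sgcd* and 434 kb upstream of *Nmur2*.

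These 13 peaks had a −log10(p) from 17.8 to 89.8 with a median of 33.5, and 3 of them passed the study threshold, in *Odz2*, downstream of *Spred2* and in *Slit3*. The *Odz2* and *Spred2* peaks carried the CAAGGT repeat of probe 7 shown above, and the *Slit3* peak 13 bases of probe 1. The *Hormad2* peak, with the longest run, was the weakest of the 13.

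A perfect tandem repeat of 20 or more bases with a unit of 1 to 6 was found in 25 of the 208 peaks (12%), against 11.8% of all limb peaks and 13% of the tiles. The unit had 2 bases in 15 of them, such as a TC tract of 57 bases in *Axin2* and a CA tract of 40 bases downstream of *Map2k4*. Fewer than 10% of the 24-base words were repeated in 156 peaks (75%), against 73.9% of all limb peaks. By repeats the peaks of chromosome 11 thus stood close to the whole list.

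**Figure D5:**
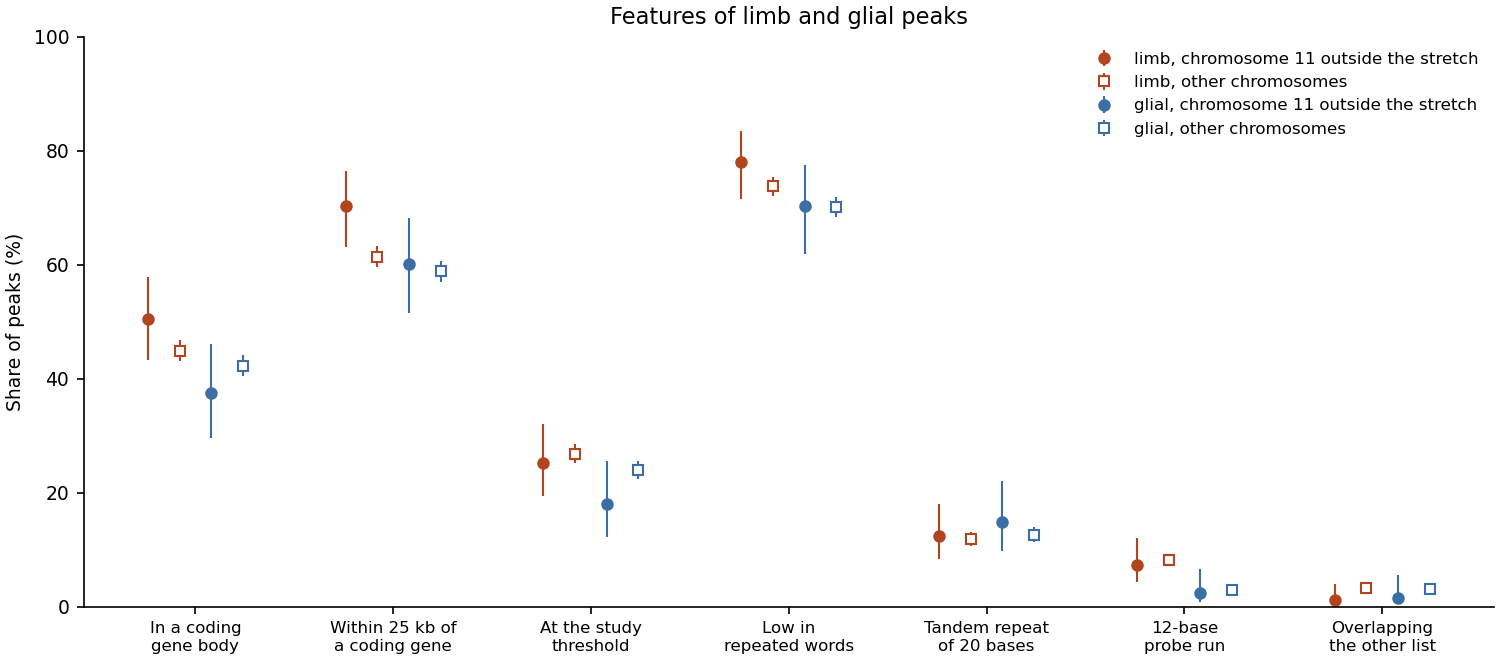
Share of peaks with each feature (%, with 95% Wilson intervals) for limb (red) and glial (blue) peaks, on chromosome 11 outside the stretch over *Sfi1* and *Drg1* (filled circles) and on all other chromosomes (open squares). The limb share within 25 kb of a coding gene is 70.2% on chromosome 11 and 61.4% elsewhere, and the share with a 12-base probe run is 7.30% and 8.21% for limb, 2.34% and 2.86% for glial peaks.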

How the data were processed

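The authors aligned reads of 6 ChIRP-seq libraries to mm9 with Bowtie 0.12.9, merged the odd and even tracks by their minimum, and called peaks with MACS against the input. The MACS version is not given in the sources used here. The deposited score of each peak is 10 times −log10 of its p-value. No read counts were used.

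Peaks were placed on NCBIM37, which is mm9, with GENCODE vM1 genes, by scripts in Python 3.11.15 with numpy 2.4.6, scipy 1.17.1, pandas 2.3.3 and pysam 0.24.0, tested on simulated data. Densities used known bases of chromosomes 1 to 19, X and Y, and 3 limb peaks elsewhere were left out. Genes named were those at the 20 strongest peaks, at shared peaks past the study threshold, at groups of 3 or more peaks, and on the list of 61 genes. *Ptchd3*, genes with probe runs, genes of dense windows and genes with both lists' peaks inside were named after their values were seen. The members and lists were chosen with earlier results of these data known. Wilson and Poisson intervals are at 95%. Alternatives changed the window size, score threshold, overlap, gene distance, gene set, run length and joining of peaks.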

Additional observations from a re-analysis of the deposited data

How the results depend on the processing

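Of 49 alternative values, 25 lay within the interval of the reported value and 24 outside it. The interval of the alternative value itself was not used in this count. With few peaks that interval is wide and can contain the reported value. Peaks of p at or below 1e-100 number 7, and 4 of them lay in the stretch over *Sfi1* and *Drg1*. The share of the 7 was 71.4% in GC-rich windows, 71.4% in gene-dense windows and 57.1% in the first 5 Mb. It was 28.6% overlapping a glial peak, 85.7% within 25 kb of a gene, 85.7% in a gene body and 0% with a probe run. Except in the first 5 Mb, the interval of each share contained the reported share. In GC-rich windows it ran from 35.9% to 91.8%, against 45.7% reported. At the study threshold there were 56 peaks, and 11 of them lay in the stretch. Of the 56, 55.4% lay in GC-rich windows (42.4% to 67.6%) and 21.4% in the first 5 Mb (12.7% to 33.8%). These intervals contain the reported 45.7% and 15.4%. At neither threshold were the shares calculated without the stretch. Without the stretch over *Sfi1* and *Drg1*, an alternative chosen after seeing the data, the shares were 36.5% in GC-rich windows, 34.3% in gene-dense windows, 1.12% in the first 5 Mb, 1.12% overlapping and 50.6% in a gene body, and the density ratio to the other chromosomes was 1.37 in place of 1.60. That ratio was 1.34 with peaks within 25 kb counted once and 1.39 without the first 5 Mb. Windows of 2 Mb gave 32.2% in gene-dense windows, below their 35.2% of the sequence where the reported share is above it. These windows of 2 Mb held 67 limb peaks with or without the stretch, so the stretch lay outside them. They held 37.6% of the limb peaks outside the stretch, above 35.2%. With windows of 1 Mb, the 34.3% without the stretch was below 35.2%. The 1.12% overlapping without the stretch rests on 2 peaks (0.309% to 4.0%). That interval contains the 3.30% of limb peaks on the other chromosomes. It also contains the 3.85% of all limb peaks, which counts the stretch. The overlap was 1.92% when 50% of both peaks had to be shared and 14.9% within 1 kb. The share near a gene was 80.3% at 50 kb and 84.6% with all annotated genes. Probe runs were found in 17.3% at 11 bases and 3.37% at 13. The stricter scores keep fewer peaks but include the stretch. What moved the values at these scores, or under the other alternatives that keep the stretch, was not tested. No paired analysis was possible because each tissue has 1 merged list. With no replicates and no read counts, the depth behind a peak is unknown and differences between tissues have no replicate check.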

Other observations

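The densest window of the glial list on chromosome 11 outside *Sfi1* and *Drg1* held no limb peak. Between 92 and 93 Mb, where GC content was 38.2% and 1 coding gene starts, the glial list had 10 peaks. Of these, 8 formed a group from 92476748 to 92487900, which lay 471 kb upstream of *Car10*, a gene of the carbonic anhydrase family, with a −log10(p) between 24.5 and 70.0. The group was chosen after its values were seen, and with 1 list per tissue the difference between limb and glial peaks there was not tested.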
